A study of Mus musculus with 6 samples.

Results

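T cell alloantigens are surface proteins of lymphocytes that were first told apart by antibodies raised between inbred mouse strains. The genes described here are Thy1, Ly6a, Ly6c1, Ly6d, Cd5, Cd6, Ly9, Ptprc, Cd2 and Cd7, and their probe sets were taken where the platform annotation gave exactly 1 gene symbol and that symbol was one of these 10. This rule found 9 of the 45101 probe sets on the array, for 8 of the 10 genes: 2 for Ptprc and 1 each for Thy1, Ly6d, Cd5, Cd6, Ly9, Cd2 and Cd7. No probe set was annotated to Ly6a or to Ly6c1 alone, and Ly6a is not analysed here. A single probe set annotated to both Ly6c2 and Ly6c1 is outside the rule and is given only as values.

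RNA of the thymus of adult female mice was hybridised to Affymetrix mouse arrays with a single channel. The AKR cross is the F1 generation of AKR/J and FVB/NJ parents (3 arrays) and the DBA cross is the F1 generation of DBA/2J and FVB/NJ parents (3 arrays). All animals thus carried 1 FVB/NJ chromosome set, and the crosses differed in the other set. The design text asks which genes differ in basal expression between these genotypes. No treatment or induced allele is named in the labels, the animals were under Avertin anaesthesia when killed, and the tissue was snap-frozen. The labels do not say that arrays came from separate animals, so p-values reflect only how far these arrays varied, and that variation may be technical.

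Thy1, Ly6a, Ly6c1 and Ly6d encode small proteins held in the membrane by a lipid anchor (glycosylphosphatidylinositol, GPI). Cd5 and Cd6 encode scavenger receptor proteins of T cells that dampen or tune signals of the T cell receptor. Ly9 and Cd2 belong to the CD2 and SLAM family of adhesion receptors. Ptprc encodes CD45, a phosphatase of all nucleated blood cells that acts on Src family kinases, and Cd7 encodes an immunoglobulin-like receptor of T and natural killer cells. AKR mice are the classical carriers of a Thy1 allele that differs from that of most other strains.

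Array medians ran from 5.92 to 5.95 on the log2 scale, and correlations between arrays over all probe sets ran from 0.994 to 0.996 within a cross and from 0.984 to 0.989 between crosses. With 3 arrays per cross, the precision of a difference is limited by their number. Thymocyte markers were present throughout, with Rag1 at 12.99 ± 0.09 (SD, n = 3) in the AKR cross and 13.07 ± 0.03 (SD, n = 3) in the DBA cross. Among 11 tested thymocyte markers, each read by its brightest probe set, Cd3e was called higher in AKR, Cd1d1 was called higher in DBA and 9 were not called. Of all 12855 tested genes 24.0% were called (12.5% toward the AKR cross, 11.5% toward the DBA cross). Dntt, not called this way, had other probe sets at 1.57 (called, adjusted p = 0.000294 over probe sets, limma) and -0.14 (not called). Cd1d1 was not called with AKR replicate 2 left out (adjusted p = 0.0778) or with DBA replicates 1 (0.0623) or 2 (0.0881) left out or without probe sets that can match several transcripts (0.133), all by limma. In whole tissue, fewer cells of a type and less RNA per cell cannot be told apart.

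Each difference is given in log2 units, positive where the AKR cross was higher, with its standard error (SE) from a limma fit across all tested probe sets. It is a difference of probe set signal. Whether sequence differences between the strains changed how RNA bound the probes was not tested. A probe set was called where its p-value, adjusted by the Benjamini-Hochberg method over 27385 probe sets, was under 0.05. All 9 member probe sets passed the filter on dim values. Of these 9, Thy1 was called higher in the AKR cross, both Ptprc probe sets were called higher in the DBA cross, and 6 were not called. Among all tested probe sets 27.2% were called (12.2% toward the AKR cross, 15.0% toward the DBA cross), so 3 of 9 is near the background. After quantile normalization of the arrays the split of all calls turned, with 53.4% of them toward the AKR cross against 44.8% as deposited. The groups did not overlap for 5 of the 9 member probe sets, against 44.7% of all tested probe sets. The median difference of the 9 probe sets was 0.15, and over all tested probe sets it was 0.01. The median size of the difference, sign aside, was 0.19 for the members and 0.18 for all tested probe sets.

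**Figure D1:**
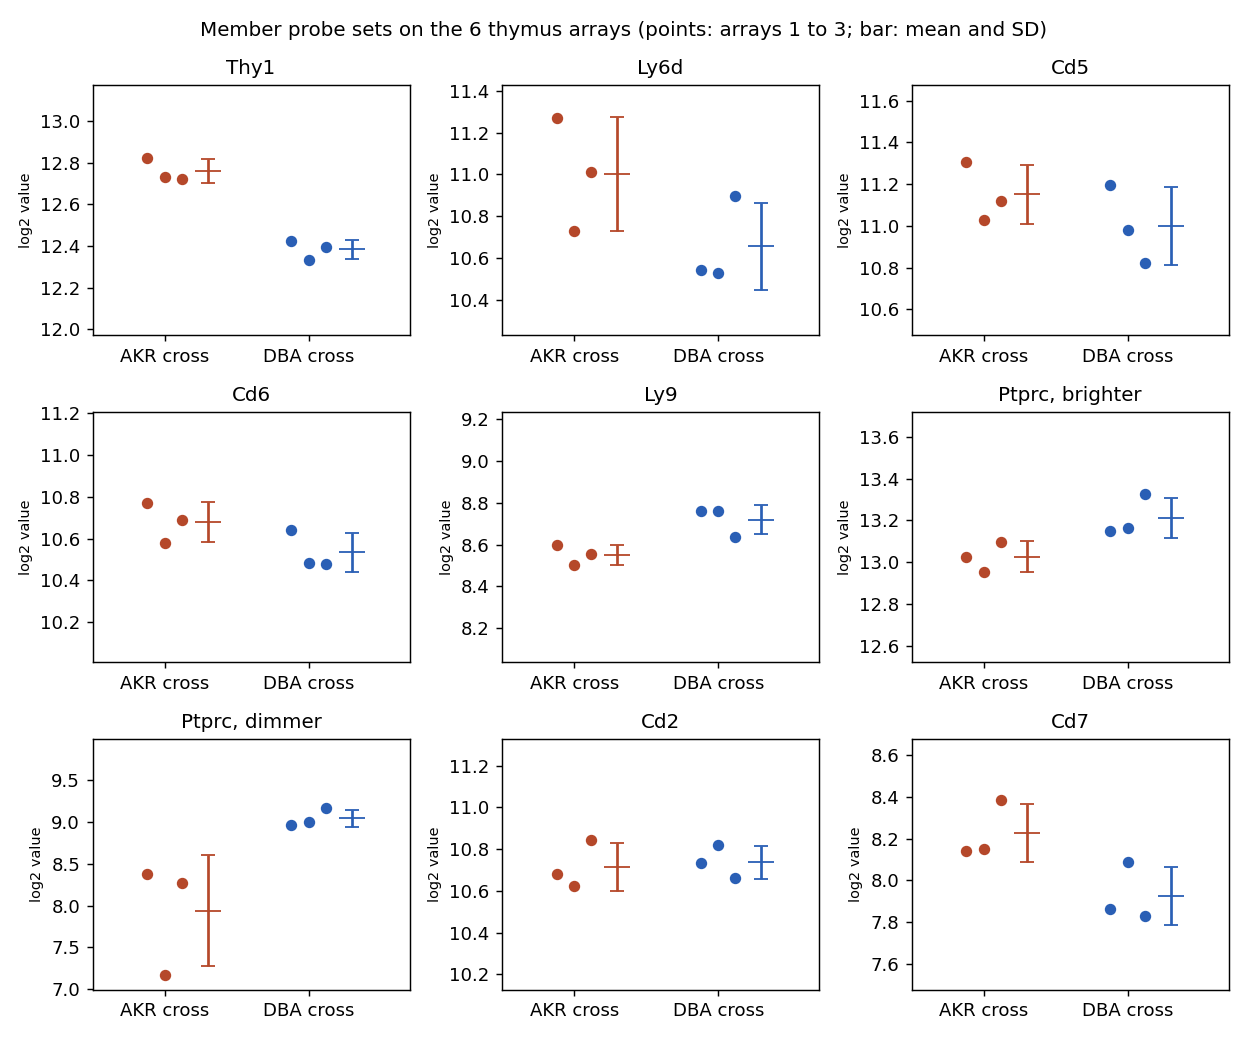
Log2 values (vertical axes) of the 9 member probe sets, one panel each, on the 3 AKR cross and 3 DBA cross arrays, with points for arrays 1 to 3 and bars for the mean and SD. The panels have axes of equal span except that of the dimmer Ptprc probe set, whose axis is longer, and the 3 Thy1 points of the AKR cross (12.72 to 12.82) sit clear of those of the DBA cross (12.33 to 12.42).

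Thy1, the GPI-anchored glycoprotein CD90 of thymocytes and T cells, had a probe set that read higher in the thymus of the AKR cross. This probe set read 12.82, 12.73 and 12.72 on the AKR arrays and 12.42, 12.33 and 12.40 on the DBA arrays. All 3 AKR arrays lay above all 3 DBA arrays, and the gap of 0.30 between the groups was wider than the range within the AKR cross (0.10) or the DBA cross (0.09). The difference was 0.37 ± 0.05 (SE), or 1.30-fold, with an adjusted p = 0.000499 (limma), and 0.27 to 0.48 was its 95% interval. Thy1 ranked at 801 of the 27385 probe sets by p-value. Its size of difference stood at the 80.4th percentile of all tested probe sets, so many probe sets differed by more.

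The Thy1 difference kept its call in all 16 alternative settings examined, with differences from 0.34 to 0.39 and a highest adjusted p = 0.00916 (limma). Among T lineage genes measured beside it, Cd3e, which encodes a signalling chain associated with the T cell receptor, differed by 0.30 ± 0.04 (adjusted p = 0.00210 over genes, limma), while Cd3g differed by -0.01 and Cd3d by 0.05, and neither was called. The summed level of the 11 thymocyte markers ran from 15.58 to 15.72 on the AKR arrays and from 15.60 to 15.61 on the DBA arrays, on the log2 scale. Of 6 tested mature T cell markers 4 were called, in both directions, against 24.0% of all genes. Slfn1 (-1.36), Ms4a4b (-0.71) and Il7r (-0.62) were called higher in DBA and Klf2 (0.37) higher in AKR, and Ccr7 and S1pr1 were not called. The Il7r call was lost without any of 4 arrays, namely AKR replicates 1 (adjusted p = 0.0685) and 2 (0.0863) and DBA replicates 2 (0.0768) and 3 (0.0907), and with robust variance estimation (0.0552), and the Klf2 call without AKR replicates 2 (0.0550) and 3 (0.0816) or DBA replicates 2 (0.0744) and 3 (0.0771), all by limma. The other tested Il7r probe set was called in the same direction as its brightest (-1.06, adjusted p = 0.0100 over probe sets, limma). The summed level of the 6 mature T cell markers ran from 11.28 to 11.85 on the AKR arrays and from 11.92 to 12.12 on the DBA arrays. Its part in the Thy1 and Ptprc results was not tested.

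Both Ptprc probe sets read lower in the AKR cross. The brighter one read 13.03, 12.95 and 13.10 on the AKR arrays and 13.15, 13.16 and 13.32 on the DBA arrays. The groups did not overlap, but the gap of 0.05 was narrower than the range within the AKR cross (0.15) or the DBA cross (0.17). Its difference was -0.19 ± 0.06 (SE), or 1.14-fold, with an adjusted p = 0.0372 (limma). Leaving out AKR replicate 1 ended this call (adjusted p = 0.0747), as did leaving out AKR replicate 2 (0.122), DBA replicate 2 (0.0586) or DBA replicate 3 (0.114), all by limma. It was also not called with each array centred on its median (adjusted p = 0.0636, limma) or without the variance trend (adjusted p = 0.136, limma).

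The dimmer Ptprc probe set read 8.38, 7.17 and 8.27 on the AKR arrays and 8.97, 9.0 and 9.17 on the DBA arrays. AKR replicate 2 was the lowest by more than 1 log2 unit, and the groups were 0.59 apart. The difference was -1.10 ± 0.27 (SE), or 2.15-fold, with an adjusted p = 0.0148 (limma). Without AKR replicate 2 it fell to -0.72 in a fit that still called it (adjusted p = 0.00213, limma), and without DBA replicate 3 it was -1.04 and not called (adjusted p = 0.0567, limma). Robust variance estimation also ended the call (adjusted p = 0.0697, limma).

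Within each array the brighter Ptprc probe set exceeded the dimmer one by 4.64, 5.78 and 4.83 log2 units on the AKR arrays and by 4.18, 4.16 and 4.16 on the DBA arrays. AKR replicate 2 was the highest of the 6, and the groups did not overlap. The means were 5.08 ± 0.61 (SD, n = 3) and 4.17 ± 0.01 (SD, n = 3), which differed by 0.92, or by 0.57 without AKR replicate 2. A two-sided exact permutation test over the 20 splits of the arrays gave p = 0.1, the smallest this design allows, so unequal change of the 2 probe sets could not be shown at 0.05. At the level of genes, where the brighter probe set stands for Ptprc, its adjusted p was 0.0413 (limma).

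Since CD45 is carried by all nucleated blood cells, markers of other such cells were counted beside Ptprc, and the share called among all genes was 24.0%. Of 5 tested markers of natural killer and innate-like T cells, Zbtb16 (-2.09), the transcription factor PLZF, was called toward the DBA cross and Klrd1 (0.40) toward the AKR cross. The summed level of the 5 ran from 9.43 to 9.61 on the AKR arrays and from 9.96 to 10.00 on the DBA arrays. Only Zbtb16, with means of 6.82 (AKR) and 8.90 (DBA), had a negative difference. Ncr1 (0.22), Nkg7 (0.20) and Tbx21 (0.11) were positive and not called, and the median difference of the 5 was 0.20. Klrd1 was not called with AKR replicate 2 left out (adjusted p = 0.0503, limma). Of 7 tested myeloid markers, S100a8 (-0.96) and S100a9 (-0.97) were called toward the DBA cross and Lyz2 (0.27) toward the AKR cross, with summed levels from 13.10 to 13.23 and from 13.08 to 13.22. The S100a9 call was lost without DBA replicate 2 (adjusted p = 0.0567) and with robust variance estimation (0.0534), and the Lyz2 call without the variance trend (0.0507), all by limma. Of 5 tested plasmacytoid dendritic cell markers only Bst2 (0.54) was called by its brightest probe set. Another Irf8 probe set was called toward the DBA cross (-0.52, adjusted p = 0.00321), against 0.24 for its brightest. Other Tcf4 probe sets were called in both directions (0.39, adjusted p = 0.0187, and -0.27, adjusted p = 0.0354), all over probe sets by limma. In the stroma, 0 of 5 tested endothelial markers and 1 of 5 fibroblast markers (Pdgfra, -0.49) were called by limma, and the Pdgfra call was lost without AKR replicates 1 (adjusted p = 0.111) or 3 (0.101) or DBA replicates 1 (0.105), 2 (0.0722) or 3 (0.0671) and with the mean of its probe sets (0.100), all by limma. The part of these cells in the Ptprc values was not tested.

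**Figure D2:**
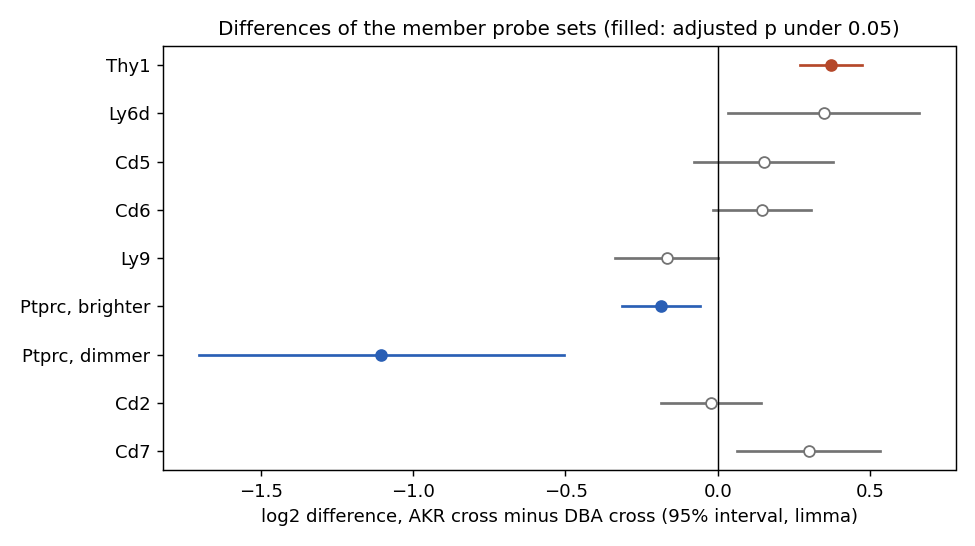
Log2 difference of each member probe set, AKR cross minus DBA cross (horizontal axis), with its 95% interval from limma and 3 arrays per cross. Filled points have an adjusted p under 0.05: Thy1 to the right of zero and both Ptprc probe sets to the left, with the interval of the dimmer Ptprc probe set the widest, from -1.70 to -0.51.

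Ly6d, a GPI-anchored Ly6 family protein known from epithelia and early B lineage cells among others, read 11.27, 10.73 and 11.01 on the AKR arrays and 10.54, 10.53 and 10.90 on the DBA arrays. The groups overlapped, since DBA replicate 3 lay above AKR replicate 2. The difference was 0.35 ± 0.14 (SE) with an adjusted p = 0.0936 (limma), and a 95% interval from 0.03 to 0.66. With 1 array left out the difference ran from 0.21 (without AKR replicate 1, adjusted p = 0.258) to 0.49 (without AKR replicate 2, adjusted p = 0.0324, called), both by limma. Without DBA replicate 3 it was 0.47 and also called (adjusted p = 0.0496, limma), and without DBA replicate 2 it was 0.28 (adjusted p = 0.244, limma). The probe set shared by Ly6c2 and Ly6c1, markers of monocytes, endothelium and some T cells, read 10.18, 10.28 and 10.27 on the AKR arrays and 10.21, 10.32 and 10.23 on the DBA arrays. Its groups overlapped, and the difference was -0.01 ± 0.06 (SE, adjusted p = 0.917, limma), with an interval from -0.15 to 0.13.

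Markers of B cells and thymic epithelium, which are among the cells that can carry Ly6d, were counted beside it, against 24.0% called among all genes. Of 7 tested B cell markers, Cr2 (0.93), Cd79a (0.74), Cd22 (0.52), Cd79b (0.44) and Pax5 (0.43) were called, all 5 toward the AKR cross, with a summed level from 10.53 to 10.62 on the AKR arrays and from 10.11 to 10.23 on the DBA arrays. Blk (0.18, adjusted p = 0.195) and Ms4a1 (0.03, adjusted p = 0.822) were not called, both by limma. Cr2 and Pax5 each lay below the filter on dim values on 2 of the 3 DBA arrays and passed it through the AKR arrays, so their differences are taken against dim values. The Cd79b call was lost without AKR replicates 1 (adjusted p = 0.0818) or 3 (0.0731) or DBA replicates 2 (0.0687) or 3 (0.0889), and the Pax5 call without AKR replicates 1 (0.113), 2 (0.0805) or 3 (0.113) or DBA replicates 1 (0.109) or 3 (0.0965), with array weights (0.0656) and with no filter (0.0565), all by limma. Of 8 tested thymic epithelial markers, Foxn1 (0.67) was called toward the AKR cross, and Epcam (-0.59), Krt14 (-0.37) and Aire (-0.34) toward the DBA cross, with summed levels from 12.60 to 12.70 and from 12.72 to 12.80. The Epcam call was lost with the mean of its probe sets (-0.22, adjusted p = 0.0534, limma), and its other probe set had a positive difference (0.15). Krt14 differed by -0.07 (adjusted p = 0.670, limma) without probe sets that can match several transcripts and by -0.22 (adjusted p = 0.108, limma) with the mean of its probe sets. Krt14 was also not called with AKR replicate 2 (adjusted p = 0.0550) or DBA replicate 2 (0.0608) left out, and the Aire call without AKR replicates 1 (0.0701) or 2 (0.0585) or DBA replicates 1 (0.0568) or 3 (0.0597), all by limma. Thymocytes, whose markers are given above, were not set beside Ly6d in this way. The part of B cells, thymic epithelium or thymocytes in the Ly6d values was not tested. The counts do not show which cells carried the Ly6d signal.

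Cd5 and Cd6, which lie near each other on chromosome 19, gave differences that did not pass the test. Cd5 read 11.31, 11.03 and 11.12 on the AKR arrays and 11.20, 10.98 and 10.82 on the DBA arrays, and differed by 0.15 ± 0.10 (SE, adjusted p = 0.294, limma). Cd6 read 10.77, 10.58 and 10.69 on the AKR arrays and 10.64, 10.48 and 10.48 on the DBA arrays, and differed by 0.15 ± 0.07 (SE, adjusted p = 0.162, limma). For both genes the groups overlapped. The Cd5 difference changed with the arrays used, to 0.07 when AKR replicate 1 was left out, 0.06 when DBA replicate 3 was and 0.25 when DBA replicate 1 was, and was not called in any of these fits (adjusted p = 0.644, 0.689 and 0.0860, limma). The 95% intervals ran from -0.08 to 0.38 for Cd5 and from -0.02 to 0.31 for Cd6, so neither gene was shown to be equal in the crosses.

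Ly9, the SLAM family receptor CD229, read 8.60, 8.50 and 8.55 on the AKR arrays and 8.76, 8.76 and 8.64 on the DBA arrays. All 3 AKR arrays lay below all 3 DBA arrays, by a gap of 0.04 that was narrower than the range within either cross (0.10 and 0.12). The difference was -0.17 ± 0.08 (SE) and was not called (adjusted p = 0.128, limma). It was not called in any of 16 alternative settings, where the adjusted p ran from 0.101 to 0.275 (limma).

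Cd2, the adhesion receptor that binds CD48 in mice, was the member with the smallest difference. It read 10.68, 10.62 and 10.84 on the AKR arrays and 10.73, 10.82 and 10.66 on the DBA arrays, and the groups overlapped. The difference of -0.02 ± 0.07 (SE, adjusted p = 0.847, limma) had a 95% interval from -0.19 to 0.14. Cd7 read 8.14, 8.15 and 8.39 on the AKR arrays and 7.86, 8.09 and 7.83 on the DBA arrays. Its groups did not overlap, by a gap of 0.05, and the difference of 0.30 ± 0.10 (SE, 1.23-fold) missed the threshold (adjusted p = 0.0620, limma). Cd7 was called without DBA replicate 2 (0.38, adjusted p = 0.0491) and after quantile normalization (0.33, adjusted p = 0.0395), both by limma.

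**Figure D3:**
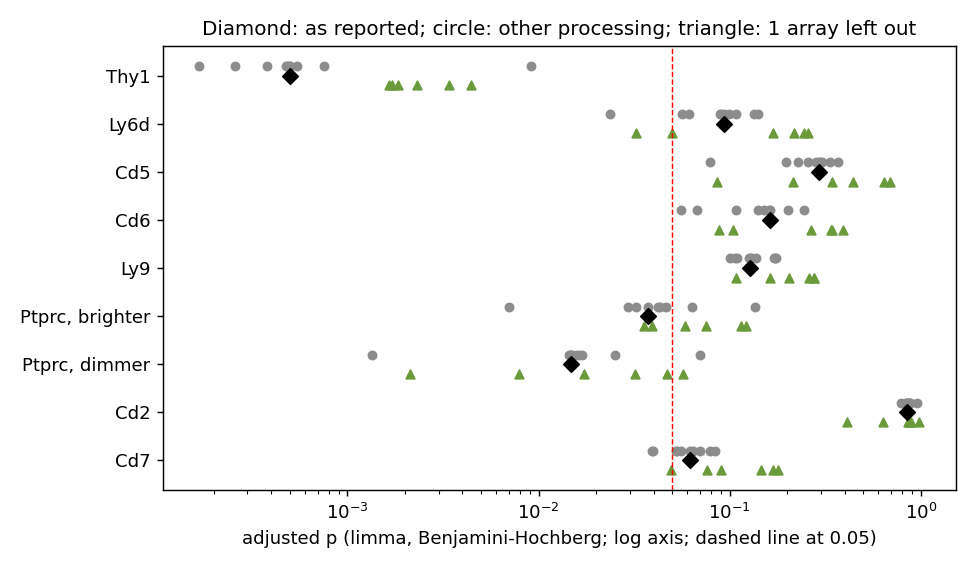
Adjusted p from limma (horizontal log axis, dashed line at 0.05) of each member probe set as reported (diamonds), under other processing (circles) and with 1 array left out (triangles). Every Thy1 mark lies left of the line (highest 0.00916), those of both Ptprc probe sets, Ly6d and Cd7 fall on both sides, and those of Cd5, Cd6, Ly9 and Cd2 lie to the right.

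Related genes were counted in 5 lists of the same families and pathways. Each gene was represented by its brightest tested probe set over all arrays, and p-values were adjusted over 12855 genes, of which 24.0% were called. Of 58 tested list genes, 17 were called, 8 toward the AKR cross and 9 toward the DBA cross. The median difference of the 58 genes was 0.02. Some list genes not called this way had other probe sets that were called. These were Lynx1 (0.38), Cd2ap (-0.55 and -0.91) and Cblb (-0.25), beside Skap1 and Ptpn2 given below.

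In the Ly6 and urokinase receptor family, 4 of 16 tested genes were called, 2 in each direction, against 24.0% of all genes. Ly6e, a broadly expressed GPI-anchored member that lies in the Ly6 cluster with Ly6d on chromosome 15, read 13.43, 13.42 and 13.45 on the AKR arrays and 13.14, 13.16 and 13.17 on the DBA arrays. The groups were well apart, with a difference of 0.28 ± 0.03 (SE, adjusted p = 0.000759, limma). The other Ly6e probe set showed a difference of 0.12 that was not called (adjusted p = 0.428 over probe sets, limma), and it stands for the gene where probe sets that can match several transcripts are left out. Lypd1 was higher in the AKR cross by 0.59 ± 0.12 (SE, adjusted p = 0.00952, limma). Lypd8 (-0.44) and Lypd2 (-0.34) were higher in the DBA cross. Lypd8 was not called with AKR replicate 3 left out (adjusted p = 0.0507), and the Lypd2 call was lost without AKR replicates 1 (0.0922), 2 (0.0648) or 3 (0.0906) or DBA replicates 1 (0.0670) or 2 (0.108), all by limma.

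In the SLAM and CD2 family, Cd244a, the receptor 2B4 of natural killer cells, was the 1 of 9 tested genes that was called, higher in the AKR cross by 0.37 ± 0.12 (SE, adjusted p = 0.0465, limma). Its call was lost without AKR replicates 1 (adjusted p = 0.0718), 2 (0.136) or 3 (0.0949), without DBA replicates 2 (0.132) or 3 (0.0940), and without the filter on dim probe sets (0.0591), all by limma. Cd244a and Ly9 lie next to each other among tested genes in the SLAM cluster on chromosome 1 and had opposite signs. The 5 tested genes on the other side of Ly9, all of this family, were not called: Slamf7 (-0.19), Cd48 (0.13), Slamf1 (-0.14), Cd84 (-0.27) and Slamf6 (-0.27).

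Ligands and cytoplasmic partners of Cd2, Cd5, Cd6 and Cd7 gave 6 called genes of 12 tested, 2 toward the AKR cross and 4 toward the DBA cross. The share called among all genes was 24.0%, and this list was chosen with earlier results of these data known. Alcam, the ligand of CD6, read 8.17, 8.16 and 8.47 on the AKR arrays and 8.75, 8.82 and 8.73 on the DBA arrays. It was thus lower in the AKR cross, by 0.50 ± 0.10 in size (SE; difference -0.50, adjusted p = 0.00790, limma). Of its 4 other tested probe sets 1 was called in the same direction, and averaging all of them gave -0.26, which was not called (adjusted p = 0.0653, limma). Sectm1a, a member of the family that holds ligands of CD7, lies next to Cd7 among tested genes on chromosome 11. It read 5.47, 5.49 and 5.43 on the AKR arrays and 6.15, 5.86 and 5.95 on the DBA arrays, a difference of -0.52 ± 0.10 (SE, adjusted p = 0.00841, limma). The Cd7 values, by contrast, had a positive difference.

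Cbl, a ubiquitin ligase that restrains receptor signals, was also higher in the DBA cross (-0.25), as was Sdcbp, the adaptor syntenin (-0.24). The Sdcbp call was lost without the variance trend (adjusted p = 0.0534, limma) and with the mean of its probe sets (0.120). Grap2, an adaptor (0.48), and Cd2bp2, a protein that binds the CD2 tail (0.24), were called toward the AKR cross and are named after their values were seen. The Cd2bp2 call was lost without AKR replicates 1 (adjusted p = 0.0614), 2 (0.0593) or 3 (0.104) or DBA replicates 2 (0.109) or 3 (0.0786), without the variance trend (0.0565) and with the mean of its probe sets (0.111), all by limma.

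Partners of CD45 and regulators of its Src kinase substrates split evenly by brightest probe set, with 3 of 13 tested genes called in each direction. Among all genes 12.5% were called toward the AKR cross and 11.5% toward the DBA cross. Skap1 (0.17) and Ptpn2 (-0.07) were not called this way. Another Skap1 probe set was called toward the DBA cross (-1.31, adjusted p = 0.000169). So were other Ptpn2 probe sets (-0.28, adjusted p = 0.0369, and -0.37, adjusted p = 0.0211), all over probe sets by limma. Csk, the kinase that places the inhibitory phosphate which CD45 removes, was higher in the AKR cross by 0.32 ± 0.06 (SE, adjusted p = 0.00738, limma) and kept its call in all 17 alternative settings. Pag1, the membrane anchor of Csk, was higher in the DBA cross by its brightest probe set (-0.27 with adjusted p = 0.0176, limma). The 3 other Pag1 probe sets had positive differences that were not called, and averaging the probe sets gave 0.04. Pag1 was also not called without AKR replicate 2 (adjusted p = 0.0553) and without DBA replicates 1 (0.0533) or 3 (0.0555), all by limma.

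Ptprcap, the CD45-associated protein of lymphocytes, is named after its values were seen. It read 11.73, 11.42 and 11.46 on the AKR arrays and 11.25, 11.22 and 11.01 on the DBA arrays. It was higher in the AKR cross by 0.38 ± 0.09 (SE, adjusted p = 0.0179, limma), where Ptprc was lower, and the call was lost without DBA replicate 3 (0.30, adjusted p = 0.0604, limma). Dpp4, the surface peptidase CD26, was higher in the DBA cross on its brightest probe set (-0.35) while another of its probe sets was called in the opposite direction (0.59). Averaging the Dpp4 probe sets gave -0.10, which was not called (adjusted p = 0.431, limma). Dpp4 was also not called without AKR replicate 2 (adjusted p = 0.0542) and without DBA replicates 2 (0.0618) or 3 (0.0504), all by limma. Cd22, an inhibitory receptor of B cells and also one of the 5 B cell markers above, was higher in the AKR cross (0.52). Fyn, a Src family kinase named after its values were seen, was higher in the DBA cross (-0.26, adjusted p = 0.0488, limma), and this call was lost in 11 of 17 settings, among them without AKR replicates 1 (0.110) or 2 (0.143) and without DBA replicates 1 (0.0736), 2 (0.0978) or 3 (0.143), all by limma. The other tested Fyn probe set was called in the same direction (-0.64, adjusted p = 0.00144 over probe sets, limma).

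Of 8 tested genes of membrane rafts and GPI anchoring, 0 were called by limma, and the lowest adjusted p was that of Flot1 (0.25, adjusted p = 0.0516, unadjusted p = 0.0126). This was the 1 gene of the 8 with an unadjusted p under 0.05, and Pgap2, a gene of GPI anchor remodelling, differed by -0.20 (adjusted p = 0.162, limma).

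**Figure D4:**
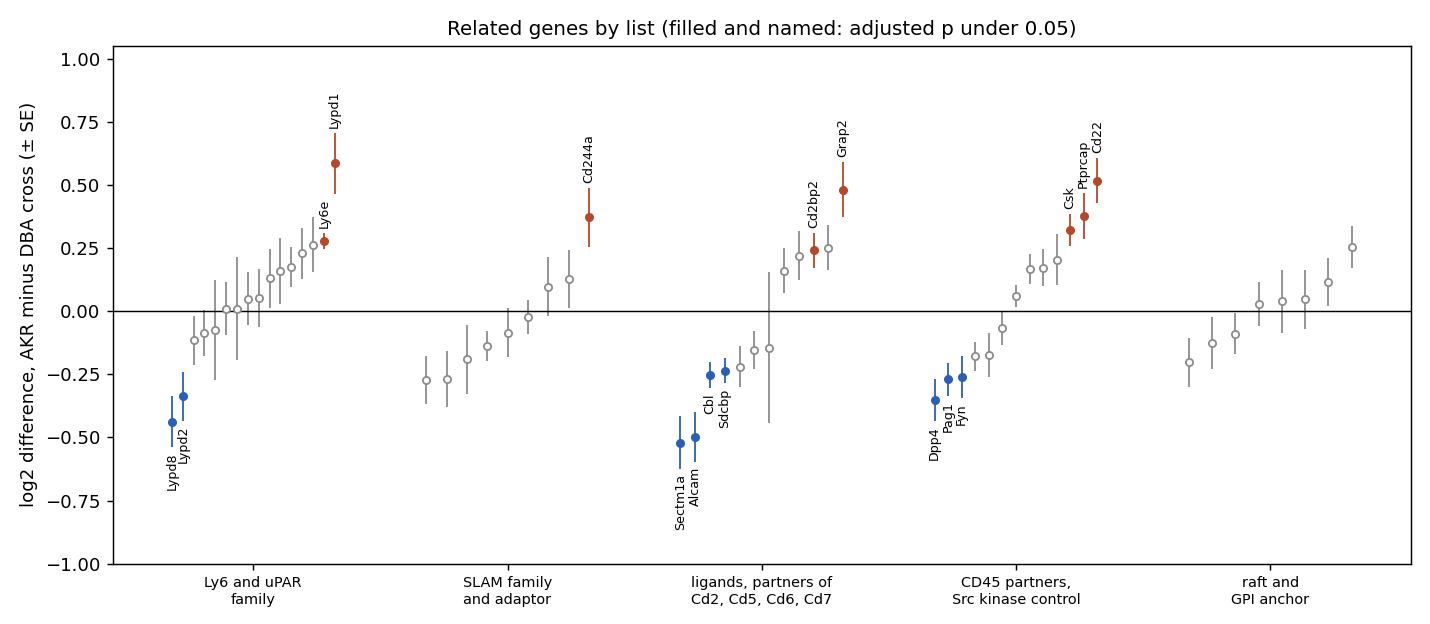
Log2 difference, AKR cross minus DBA cross (vertical axis, with SE bars), of 58 tested genes in 5 lists of related genes, ordered by value within each list. Filled and named genes have an adjusted p under 0.05, 8 above zero and 9 below, and the raft and GPI anchor list holds none.

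The neighbours of the members on their chromosomes were counted against the 24.0% called among all genes (12.5% toward the AKR cross, 11.5% toward the DBA cross). Among the 5 tested genes on each side of Thy1 on chromosome 9, Ccdc153 (0.38) and Cbl (-0.25) were called, in opposite directions, and 8 were not. Of the 10 tested genes around Ptprc on chromosome 1, 3 were called toward the AKR cross and 1, its next neighbour Nek7 (-0.36), toward the DBA cross. Around Ly9 the counts were 2 and 2 of 10, around Ly6d 2 and 1, around Cd5 2 and 0, around Cd6 2 and 1, around Cd7 0 and 1, and around Cd2 0 and 2, in the order AKR cross and DBA cross. Cd5 and Cd6 share most of these neighbours.

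The genes whose 6 values most resembled those of the called members, after each gene's own mean was subtracted, were found over all tested genes. For Thy1 these were Lrrc14, Diablo and Dctn3, with a root mean square distance of 0.013, 0.015 and 0.021 log2 units. Their differences between the crosses were 0.35, 0.39 and 0.39. For Ptprc they were Stk38, Dctn6 and Mbd1, with distances of 0.026, 0.027 and 0.027 and differences of -0.16, -0.22 and -0.18. With 6 arrays in 2 groups, such likeness rests mainly on the difference between the crosses.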

How the data were processed

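Expression was taken from the authors' deposited log2 values of 45101 probe sets on 6 arrays, which were grouped by sample title. MAS5 and RMA are named, without role or version, per the submitters' processing notes, and no source used here says which made the values. Array distributions were nearly but not exactly equal. Values were not normalized again. Leaving aside 64 control probe sets, those above the 40th percentile of their array on at least 3 of 6 arrays (27385) entered a two-sided limma test (version 3.58.1, R 4.3.3; lmFit, then eBayes with a trend), and Benjamini-Hochberg adjusted p-values under 0.05 were called. For genes, the p-values of the brightest probe sets were adjusted over 12855 genes. The fit was tested on simulated data. Plots used matplotlib 3.10.9 (Python 3.11.15).

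Symbols came from the platform annotation, and the order of genes on chromosomes from a RefSeq table of assembly GRCm38.p6. The members, gene lists and markers were chosen with earlier results of these data known. The text names every member probe set, called cell markers, up to 4 called genes per list with the lowest adjusted p (up to 2 where none passed), and 3 genes most like each called member, with any others chosen after their values were seen. Alternatives numbered 17: 2 filters, 2 normalizations, a floor at the 20th percentile, 2 variance models, array weights, a replicate block, each array left out, the omission of probe sets that can match several transcripts, and averaging over the probe sets of a gene.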

Additional observations from a re-analysis of the deposited data

How the results depend on the processing

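Of the member calls, Thy1 held in every alternative tried, and the others did not. The count of member probe sets called higher in the AKR cross went from 1 to 2 after quantile normalization. The count higher in the DBA cross went from 2 to 1 with each array centred on its median, without the variance trend, with robust variance estimation (the dimmer Ptprc probe set, adjusted p = 0.0697, limma), and without probe sets that can match several transcripts, which leaves out the brighter Ptprc probe set. The count of member genes called went from 2 to 1 with centring and without the trend.

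With 1 array left out, the member probe sets called ranged from 2 to 3, those higher in the AKR cross from 1 to 2, those higher in the DBA cross from 0 (without DBA replicate 3) to 2, and member genes called from 1 to 2. List genes called ranged from 11 (without DBA replicate 3) to 15, against 17, with 5 to 8 higher in the AKR cross and 5 to 8 higher in the DBA cross. All probe sets called ranged from 4946 (without DBA replicate 2) to 6051, against 7449, and all genes called from 1816 to 2490, against 3084, with 1816, 1924 and 1974 without DBA replicate 2, DBA replicate 3 and AKR replicate 2. Fewer arrays enter these fits.

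The Cd2 difference, which was not called, changed sign to 0.016 after quantile normalization, to 0.024 without AKR replicate 2 and to 0.019 without DBA replicate 2, and ran from -0.086 to 0.024 with 1 array left out.

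The replicate numbers of the titles gave correlations of deviations of 0.39, 0.07 and 0.37 for the same-numbered arrays. Differently numbered arrays gave -0.38 to 0.07, so the values for replicates 1 and 3 were the highest. The main fit did not pair arrays by these numbers. A replicate block was fitted as an alternative, but the replicate term itself was not tested. With the replicate block, 5 member probe sets were called, 3 of them higher in the AKR cross, and 4 member genes were called, with Ly6d (adjusted p = 0.0237) and Cd7 (0.0397) added, both by limma. All genes called were 4194 with the block, against 3084 in the main fit, and all probe sets called were 9839 against 7449.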
